A study of Mus musculus with 6 samples.

Results

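The genes described here are 10 of the 54532 genes in the deposited tables: the transcription factor NRF2 (Nfe2l2), its inhibitor Keap1, and 8 genes of cystine uptake, glutathione and thioredoxin metabolism that NRF2 is known to drive (Slc7a11, Gclc, Gclm, Gsr, Txnrd1, Srxn1, Prdx1 and Nqo1). They were chosen by symbol. These genes and the gene lists used below were chosen with earlier results of these data known, so their counts are descriptions and not independent support. RNA came from cultured bone marrow macrophages, 3 libraries labelled 4-1BBL KO and 3 labelled WT, with 4-1BBL being a TNF family ligand encoded by Tnfsf9. Retroviral v-raf and v-myc had been used to immortalise the cells of both groups, and all were given IL-4, the cytokine of alternative macrophage activation, at 10 ng/ml for 24 hours, so every value is a level after IL-4. Neither the number of lines per genotype nor the number of cultures or animals behind the libraries is in the labels. Genotype and line therefore cannot be told apart, and p-values reflect library-to-library spread that may be technical.

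NRF2 is held in the cytoplasm and marked for degradation by KEAP1, a substrate adaptor of a CUL3 ubiquitin ligase. Electrophiles and oxidants modify cysteines of KEAP1, NRF2 then accumulates, pairs with a small MAF protein and binds antioxidant response elements, sites that the repressor BACH1 also occupies. Its targets import cystine, build and recycle glutathione, reduce thioredoxin and supply NADPH, and in macrophages they buffer the oxidants made during activation.

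Depth recovered from the FPKM (fragments per kilobase of exon and per mega assigned fragments) was 19.1 to 26.4 M (mega) assigned fragments in KO-labelled libraries and 20.7 to 22.3 M in WT libraries. Tnfsf9 was at 10.9 ± 0.414 FPKM in KO-labelled and 12.3 ± 2.10 FPKM in WT libraries (SD, n = 3 each; exact two-sided permutation p = 0.4, smallest possible 0.1). Which stretch of the gene was removed is not stated, so this level checks the labels only weakly. Gm11110, on the opposite strand, covers 14.9% of the Tnfsf9 exon bases. It averaged 1.87 FPKM, below the Tnfsf9 mean of either group, and its share in the Tnfsf9 level was not tested. Of 7 macrophage markers 3 were lower in KO-labelled cells, 3 higher and Itgam past neither limit, where 30.2% of all tested genes were lower and 30.6% higher. The lower ones were Csf1r, at 134 ± 2.95 FPKM in KO-labelled and 232 ± 1.22 FPKM in WT libraries, Cd68 (1.55-fold lower) and Lyz2 (2.50-fold lower). Over all 7 markers the summed level was 1156 to 1213 FPKM in KO-labelled and 1871 to 1912 FPKM in WT libraries. Abundant genes weigh most in this sum, above all Lyz2, at 484 ± 32.8 FPKM in KO-labelled and 1207 ± 12.5 FPKM in WT libraries. Fcgr1 was 2.72-fold higher. Itgam shares 68.7% of its exon bases with Gm49368 on the same strand, so its level is less certain. Adgre1, the F4/80 antigen, was at 268 ± 6.07 FPKM in KO-labelled and 11.8 ± 0.625 FPKM in WT libraries, and Mertk, an efferocytosis receptor, was at 4.24 ± 0.154 FPKM in KO-labelled libraries, against 2 fragments in all over the 3 WT libraries. Markers of other cell types summed to 1.67 to 2.29 FPKM in KO-labelled and 1.90 to 2.43 FPKM in WT libraries, with 13 of 19 genes at 0 in every library. Most of this sum was Pecam1, at 1.87 ± 0.225 FPKM in KO-labelled and 1.87 ± 0.0932 FPKM in WT libraries. The part of the macrophage marker differences in the results was not tested.

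Most members were lower in KO-labelled cells, 6 of them by 1.93-fold to 3.82-fold. Of the 10 members 9 reached the mean of 1 FPKM needed for testing, and 7 of these fell, 0 rose and the others, Keap1 and Prdx1, missed the threshold (limma, Benjamini-Hochberg adjusted p under 0.05). No member was higher at an unadjusted p under 0.05 either (0 genes), nor with voom on recovered fragments (0 genes). Over all 10843 tested genes 30.2% were called lower and 30.6% higher, 60.8% together; after rescaling to TPM 2642 were called lower and 3969 higher, against 3273 lower and 3321 higher here. The KO-labelled libraries lay below all WT libraries in 7 members, as in 33.4% of all tested genes, and above them in 0, as in 34.1%. Slc7a11, Gclc, Gclm, Gsr, Txnrd1 and Srxn1 were called and at least 1.5-fold lower, which held for 12.9% of all tested genes. The median log2 difference, KO-labelled minus WT, was -0.99 over the 9 tested members and 0.0055 over all tested genes. Nfe2l2 itself fell slightly, and Keap1 and Prdx1 did not pass. In bulk RNA a smaller share of cells with a transcript and less of it per cell cannot be told apart.

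**Figure D1:**
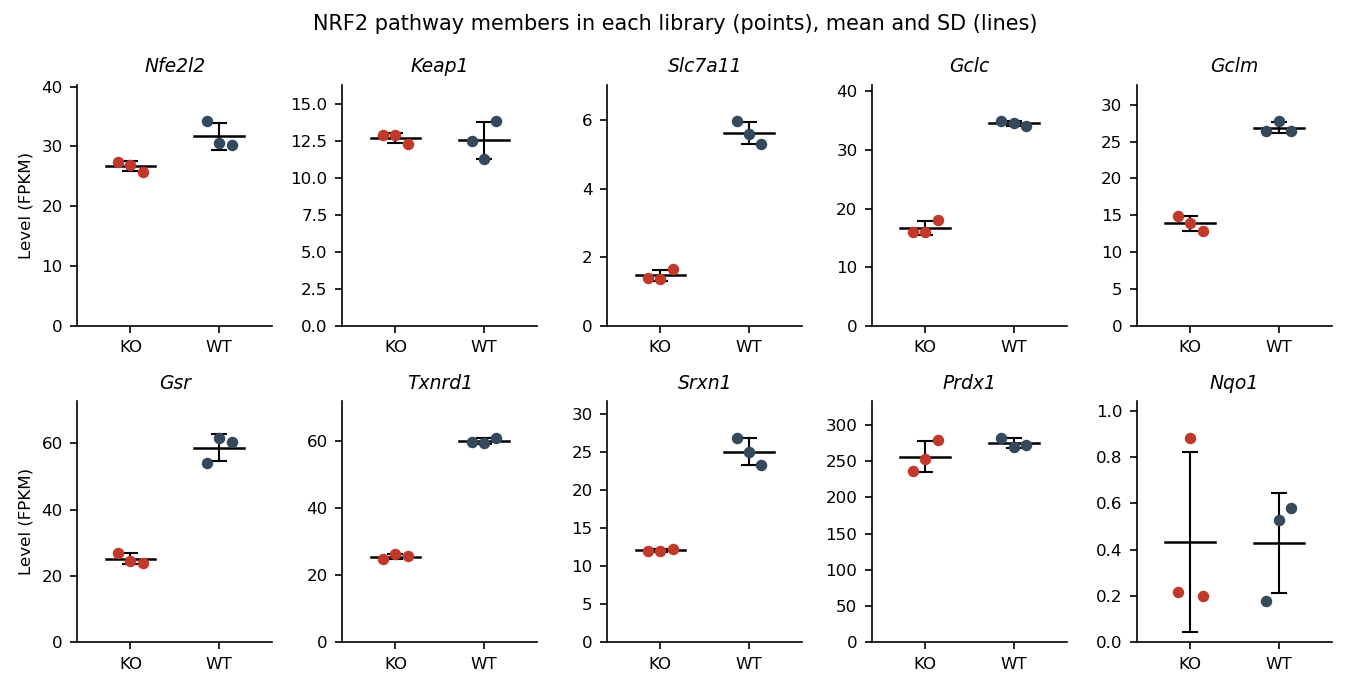
Level of each of the 10 members in FPKM (linear axis from 0, a separate scale for each gene) in the 3 KO-labelled libraries (KO, red) and the 3 WT libraries (dark). Points are libraries and black lines are the mean and SD; the KO-labelled and WT points do not overlap for Nfe2l2, Slc7a11, Gclc, Gclm, Gsr, Txnrd1 and Srxn1 and do overlap for Keap1, Prdx1 and Nqo1.

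Promoter windows in RefSeq (GRCm38.p6, the build also known as mm10), 250 bases before to 50 after a start site, matched 8 of the members, with 10 windows in all because Txnrd1 has 3 starts. The core antioxidant response element searched was TGACNNNGC, on both strands. It was found in 5 of the 10 windows, those of 5 genes, and in 12.4% of all 32851 windows. The longer form TGACTCAGC, which also holds the AP-1 motif TGACTCA, was in the Prdx1 window and in 0.454% of all windows. These stretches are shown because they carry the element beside genes that differ in how they behaved: Gclm, Txnrd1, Srxn1 and Nfe2l2 fell, Prdx1 did not pass. Each is written on the strand of its gene, with the element in capitals.
Gclm, chr3:122245377-122245477, plus strand: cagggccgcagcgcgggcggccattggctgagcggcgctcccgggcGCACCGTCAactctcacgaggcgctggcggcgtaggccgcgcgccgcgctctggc
Txnrd1, chr10:82859068-82859168, plus strand: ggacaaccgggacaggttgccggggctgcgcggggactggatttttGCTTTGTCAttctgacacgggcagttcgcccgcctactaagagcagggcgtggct
Prdx1, chr4:116685420-116685520, plus strand: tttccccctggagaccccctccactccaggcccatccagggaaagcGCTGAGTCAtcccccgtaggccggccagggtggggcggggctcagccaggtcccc
Srxn1, chr2:152105543-152105569, plus strand: cagtgggcaGCTAGGTCAgagtgagac
Nfe2l2, chr2:75704886-75704912, minus strand: cagcccaccTGACTCCGCcatgccccg
The first base of the element lay at -134 in Gclm, -92 from one of the starts of Txnrd1, -133 in Prdx1, 29 in Srxn1 and -240 in Nfe2l2, counted from the start site. The element reads as spelled in Nfe2l2 and as its reverse complement in the other four. The windows of Slc7a11, Keap1 and Nqo1 did not hold these letters. Gclc and Gsr had no window and were not searched. A match is a description of the letters and not a binding site.

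The regulator pair differed little between the groups. Nfe2l2 (ENSMUSG00000015839, chromosome 2, 75675513 to 75704641 in mm10) had 27.4, 26.9 and 25.8 FPKM in KO-labelled replicates 1 to 3, against 34.2, 30.6 and 30.2 FPKM in WT replicates 1 to 3. All KO-labelled libraries lay below all WT libraries, by a narrow gap. Its log2 difference was -0.24 ± 0.06 (SE, 95% interval -0.38 to -0.09, adjusted p = 0.0119). After rescaling to TPM (values scaled to the same total in every library) the difference was -0.15 and no longer passed (adjusted p = 0.0848), whereas it passed under the other 12 alternatives.

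Keap1 (ENSMUSG00000003308, chromosome 9, 21229730 to 21239361) had 12.9, 12.9 and 12.3 FPKM in KO-labelled libraries, against 12.5, 11.3 and 13.9 FPKM in WT libraries. The groups overlapped and the difference was 0.020 with an interval of -0.16 to 0.20 (adjusted p = 0.836); its sign turned under quantile normalization (-0.020) and without WT replicate 2 (-0.048). Of its exon length 10.9% overlaps the antisense gene Gm16754, which averaged 0.654 FPKM.

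Among the tested members the largest relative difference was in cystine uptake. Slc7a11 (ENSMUSG00000027737, chromosome 3, 49892526 to 50443614) encodes the light chain of system xc-, the exchanger that brings in cystine for glutamate. It had 1.39, 1.38 and 1.66 FPKM in KO-labelled libraries, from 510, 377 and 442 fragments, against 5.96, 5.60 and 5.31 FPKM in WT libraries, from 1774, 1618 and 1645 fragments. The highest KO-labelled library was far below the lowest WT library, and the mean was 3.82-fold lower in KO-labelled cells. The log2 difference was -1.42 ± 0.08 (SE, adjusted p = 8.15e-06), and it was -1.94 with voom, since adding 1 FPKM shrinks the change of a gene at this level.

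Slc3a2, which encodes the heavy chain that carries SLC7A11 and several other amino acid transporters to the cell surface, went the other way. Its level was 71.0, 68.7 and 70.4 FPKM in KO-labelled libraries, against 49.6, 52.1 and 52.9 FPKM in WT libraries, 1.36-fold higher (log2 difference 0.44 ± 0.04 SE, adjusted p = 0.000109). The 2 chains of the exchanger thus differed between the groups in opposite directions.

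Both subunits of glutamate-cysteine ligase, the enzyme of the first and rate-limiting step of glutathione synthesis, fell by nearly the same factor. Gclc, the catalytic subunit (ENSMUSG00000032350, chromosome 9, 77754535 to 77794485), had 16.1, 15.99 and 18.1 FPKM in KO-labelled libraries, against 34.9, 34.6 and 34.0 FPKM in WT libraries. Gclm, the modifier subunit (ENSMUSG00000028124, chromosome 3, 122245557 to 122270732), had 14.9, 13.97 and 12.9 FPKM in KO-labelled libraries, against 26.5, 27.7 and 26.5 FPKM in WT libraries. Neither gene's groups overlapped. The means were 2.07-fold lower for Gclc and 1.93-fold lower for Gclm, with log2 differences of -1.01 ± 0.06 and -0.90 ± 0.06 (SE, adjusted p = 7.60e-06 and 1.89e-05). Gss, the synthetase of the next step, was 2.46-fold lower, at 2.32 ± 0.456 FPKM in KO-labelled and 5.70 ± 0.0949 FPKM in WT libraries (adjusted p = 0.000189). Gclm has a near-identical copy, Gm12728, that averaged 0.0139 FPKM, and 6.68% of the exon length of Gss overlaps Acss2.

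Gsr, the reductase that uses NADPH to turn oxidised glutathione back into its reduced form, fell as well. The gene (ENSMUSG00000031584, chromosome 8, 33652523 to 33698163) had 27.1, 24.6 and 23.9 FPKM in KO-labelled libraries, against 54.0, 61.7 and 60.3 FPKM in WT libraries, 2.33-fold lower with no overlap (log2 difference -1.19 ± 0.07 SE, adjusted p = 8.93e-06).

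Of the members of the thioredoxin system, the reductase Txnrd1 and the repair enzyme Srxn1 fell, while the abundant Prdx1 did not pass. Txnrd1 (ENSMUSG00000020250, chromosome 10, 82833951 to 82897712), the selenoprotein that reduces cytosolic thioredoxin, had 24.7, 26.4 and 25.6 FPKM in KO-labelled libraries, against 59.7, 59.5 and 61.0 FPKM in WT libraries. It was 2.35-fold lower, and the spread within each group was small (log2 difference -1.20 ± 0.04 SE, adjusted p = 7.75e-07). Srxn1 (ENSMUSG00000032802, chromosome 2, 152105516 to 152111376), the sulfiredoxin that repairs over-oxidised peroxiredoxins, had 12.04, 12.01 and 12.3 FPKM in KO-labelled libraries, against 26.9, 25.0 and 23.3 FPKM in WT libraries. It was 2.07-fold lower (log2 difference -0.99 ± 0.06 SE, adjusted p = 1.12e-05).

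Prdx1 (ENSMUSG00000028691, chromosome 4, 116685544 to 116700822), a peroxiredoxin that removes hydrogen peroxide and a substrate of Srxn1, was the most abundant member, with 237, 253 and 279 FPKM in KO-labelled libraries, against 282, 269 and 273 FPKM in WT libraries. KO-labelled replicate 3 lay within the WT range. The difference of -0.11 had an interval of -0.26 to 0.05 (adjusted p = 0.191). It was -0.17 and passed without KO-labelled replicate 3 (adjusted p = 0.0140), and it was 0.085 under quantile normalization (adjusted p = 0.354). Fragments of its near-identical copy Gm21399, which averaged 7.09 FPKM, could not be told apart with certainty.

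Nqo1 (ENSMUSG00000003849, chromosome 8, 107388225 to 107403206), a quinone reductase often used as a readout of NRF2, was barely detected. It had 0.220, 0.883 and 0.202 FPKM in KO-labelled libraries, from 9, 27 and 6 fragments, against 0.181, 0.528 and 0.578 FPKM in WT libraries, from 6, 17 and 20 fragments. The groups overlapped widely, and a difference was not detectable at this depth. It was left out of the test by the filter; without a filter its difference was -0.015 (adjusted p = 0.962).

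**Figure D2:**
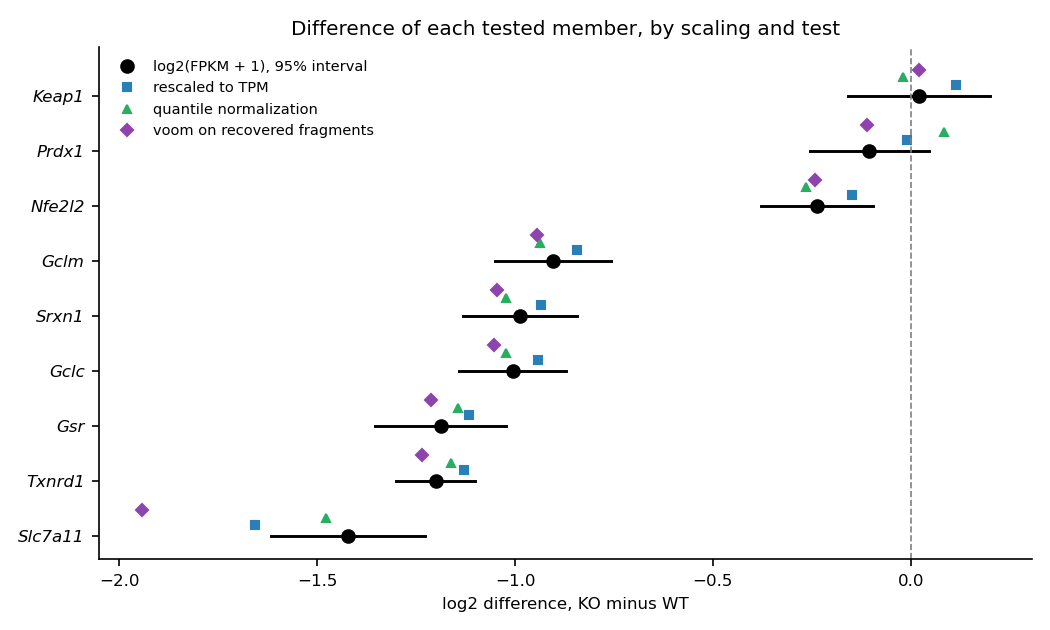
Log2 difference, KO-labelled minus WT, for the 9 tested members, ordered from the highest to the lowest. Black points and bars are the fit on log2(FPKM + 1) with its 95% interval. The coloured marks are the same difference after rescaling to TPM, after quantile normalization and with voom on recovered fragments. The black points of 6 members lie between -0.90 and -1.42, and some of their coloured marks lie outside this range, as for Slc7a11 with voom (-1.94). The marks for Keap1 and Prdx1 fall on both sides of 0.

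The 6 members with the larger differences spanned log2 values of -0.90 to -1.42, and at most 7.35% of all tested genes had a difference as low as any of them. Their calls held in every alternative in which they were tested, with a highest adjusted p of 0.000256; Slc7a11 was not tested where a mean of 5 FPKM was required. Within a group the members with a mean above 1 FPKM varied little between libraries, with coefficients of variation of 1.505 to 10.9% in KO-labelled and 1.201 to 10.1% in WT cells. In order of mean FPKM, KO-labelled cells ran from Prdx1 to Nfe2l2, Txnrd1 and Gsr, whose libraries overlapped, then Gclc, then Gclm, Keap1 and Srxn1, whose neighbours overlapped, then Slc7a11 and Nqo1. In WT cells the order was Prdx1, then Txnrd1 and Gsr overlapping, Gclc and Nfe2l2 overlapping, Gclm and Srxn1 overlapping, then Keap1, Slc7a11 and Nqo1. Nfe2l2 therefore had rank 2 among the members in KO-labelled cells and rank 5 in WT cells.

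Ratios of partner genes within a library do not depend on how libraries are scaled. The ratio of Gclm to Gclc was 0.929, 0.874 and 0.714 in KO-labelled libraries, against 0.760, 0.801 and 0.777 in WT libraries, overlapping (exact two-sided permutation p = 0.4). The ratio of Slc3a2 to Slc7a11 was 51.1, 49.97 and 42.4 in KO-labelled libraries, against 8.32, 9.29 and 9.96 in WT libraries, a log2 difference of 2.38. For Srxn1 over Prdx1 the ratio was 0.0509, 0.0475 and 0.0443 in KO-labelled libraries, against 0.0953, 0.0929 and 0.0854 in WT libraries, a log2 difference of -0.94. That of Nfe2l2 over Keap1 was 2.12, 2.08 and 2.09 in KO-labelled libraries, against 2.73, 2.70 and 2.18 in WT libraries, a log2 difference of -0.27. The groups did not overlap in these last 3 ratios. Each had an exact permutation p of 0.1, the smallest that 3 against 3 libraries allow, and 0.133 after Benjamini-Hochberg adjustment over the 4 ratios.

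**Figure D3:**
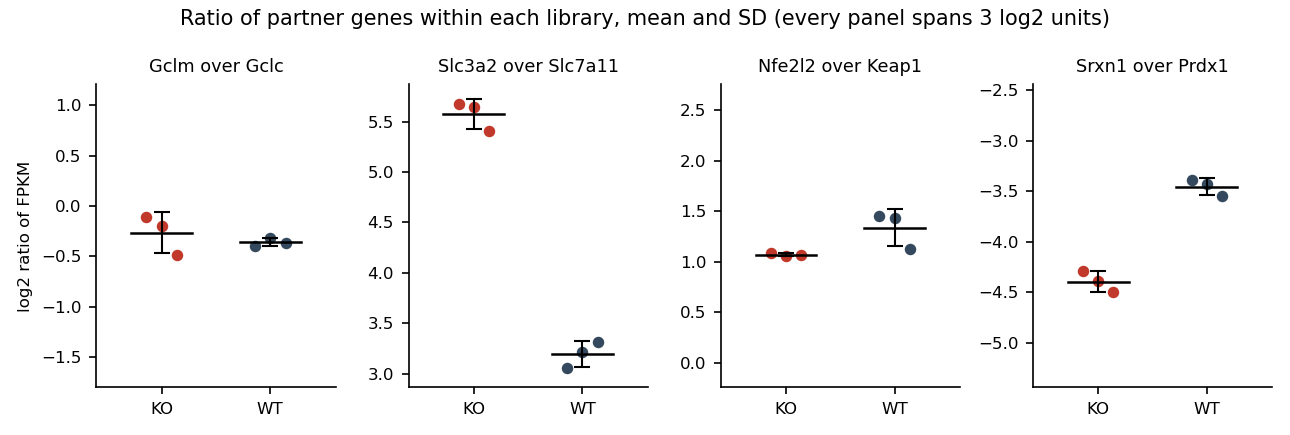
Log2 ratio of the FPKM of partner genes in each KO-labelled (red) and WT (dark) library, with mean and SD; every panel spans 3 log2 units. The ratio of Slc3a2 to Slc7a11 is higher in KO-labelled libraries by 2.38, that of Srxn1 to Prdx1 lower by 0.94, and the groups overlap for Gclm over Gclc.

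The profile of Slc7a11, the member with the largest log2 difference, was nearest to those of Sik2, Fam92a and Hcfc2 among all tested genes, with Euclidean distances of 0.207, 0.208 and 0.341 over the 6 log2(FPKM + 1) values. These genes averaged 1.58, 1.43 and 1.62 FPKM in KO-labelled libraries and 5.76, 5.54 and 6.27 FPKM in WT libraries.

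Among 11 tested partners and regulators of NRF2 5 rose and 3 fell (median log2 difference 0.17), where 30.6% of all tested genes rose and 30.2% fell. Bach1, the heme-sensing repressor that competes with NRF2 for the antioxidant response element, had 23.3, 23.0 and 25.2 FPKM in KO-labelled libraries, against 5.68, 5.66 and 5.83 FPKM in WT libraries. It was 4.16-fold higher, with a gap many times the spread (log2 difference 1.88 ± 0.05 SE, adjusted p = 2.89e-07). Mafg, a small MAF partner of NRF2 and of BACH1, was 1.77-fold lower, at 11.2 ± 0.820 FPKM in KO-labelled and 19.9 ± 1.03 FPKM in WT libraries. Dpp3, a peptidase known to bind KEAP1, was 1.94-fold higher, at 51.9 ± 2.77 FPKM in KO-labelled and 26.8 ± 1.502 FPKM in WT libraries. The adjusted p was at most 6.53e-05 for Bach1, Mafg and Dpp3. Of the other small MAF genes, both named after their values were seen, Maff was 1.75-fold higher (limma, adjusted p = 0.0277). Mafk missed the threshold (log2 difference 0.14, limma, adjusted p = 0.174).

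Other genes of cystine, cysteine and glutathione handling were mostly lower: 9 of 12 tested fell, against 30.2% of all tested genes, and 2, Slc3a2 and Ggct, rose (median -0.47). Chac1, which breaks glutathione down, was 3.66-fold lower, at 2.83 ± 0.797 FPKM in KO-labelled and 10.4 ± 0.556 FPKM in WT libraries (adjusted p = 6.99e-05). Slc1a4, a transporter of neutral amino acids, was 2.19-fold lower, at 2.41 ± 0.195 FPKM in KO-labelled and 5.27 ± 0.635 FPKM in WT libraries (adjusted p = 0.000223). Ggct, named after its values were seen, was weak at 1.71 ± 0.278 FPKM in KO-labelled and 1.08 ± 0.270 FPKM in WT libraries (adjusted p = 0.0418), and the number of genes that rose was 1 without any 1 of KO-labelled replicates 1 to 3 or WT replicates 2 and 3.

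Among 18 tested enzymes that use glutathione 7 rose and 10 fell (median -0.27), where 30.6% of all tested genes rose and 30.2% fell. The genes with the largest differences were transferases, which join glutathione to electrophiles, and all 3 were higher in KO-labelled cells. Mgst1, a membrane-bound transferase, was at 25.4, 26.0 and 23.0 FPKM in KO-labelled libraries and had 0 fragments in all 3 WT libraries, at least 357-fold higher against a floor of 3 fragments per library. Gstp1 was 5.96-fold higher, at 55.1 ± 9.74 FPKM in KO-labelled and 9.25 ± 1.01 FPKM in WT libraries, and Gstm1 was 4.47-fold higher, at 47.0 ± 4.78 FPKM in KO-labelled and 10.5 ± 1.28 FPKM in WT libraries. The adjusted p was at most 7.38e-06 for these 3. Gstp1 and Gstm1 have near-identical copies (Gstp-ps averaged 5.41 FPKM and Gstm2-ps1 1.09 FPKM), so their values are less certain.

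**Figure D4:**
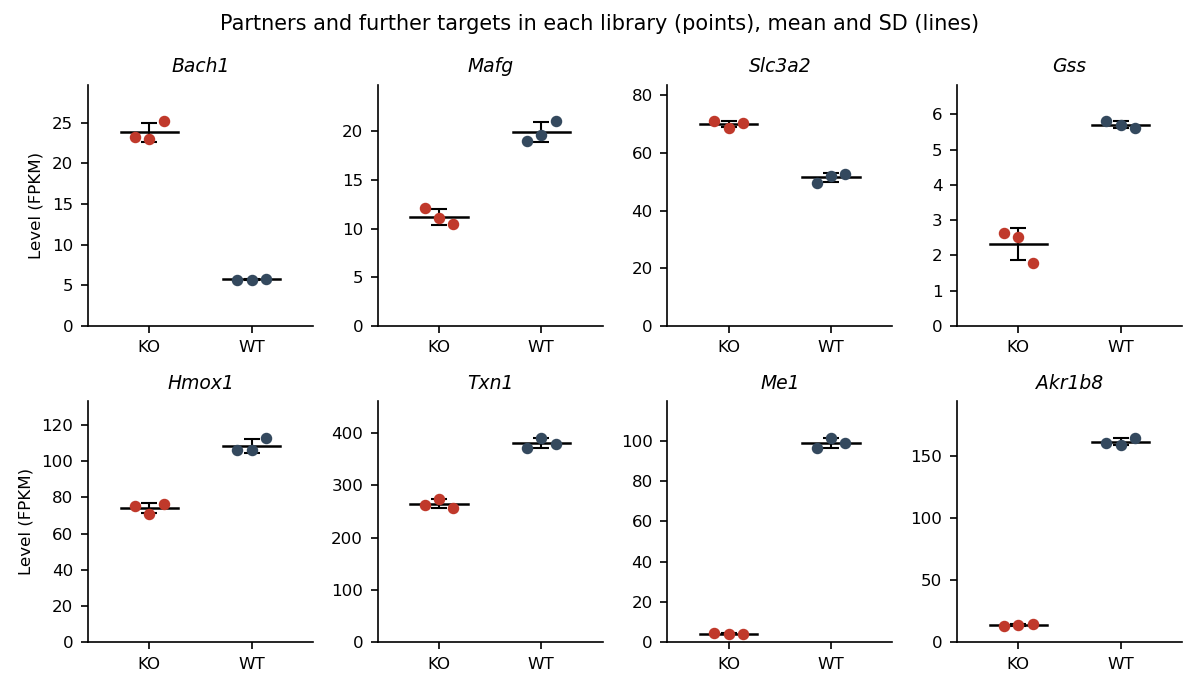
Level in FPKM (linear axis from 0) of 8 partners and further NRF2 targets in the KO-labelled (red) and WT (dark) libraries, with mean and SD. Bach1 and Slc3a2 are higher in KO-labelled libraries, and Mafg, Gss, Hmox1, Txn1, Me1 and Akr1b8 are lower, with no overlap in any panel.

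Other genes of the thioredoxin and peroxiredoxin systems were called in shares near those of all tested genes (30.6% higher, 30.2% lower). The 15 tested genes comprised 5 that rose, 5 that fell and 5 past neither limit (median -0.080), and the number that fell was 3 without any 1 of the WT replicates. Txn1, the cytosolic thioredoxin that Txnrd1 reduces, was 1.44-fold lower, at 265 ± 8.51 FPKM in KO-labelled and 380.002 ± 9.77 FPKM in WT libraries (adjusted p = 4.23e-05). Nxn, a thioredoxin relative, was 6.997-fold lower, at 0.275 ± 0.0695 FPKM in KO-labelled and 1.92 ± 0.239 FPKM in WT libraries (adjusted p = 0.000109). It reached the mean of 1 FPKM needed for testing only through the WT libraries and had 57 fragments over the KO-labelled ones, so its fold is rough. The gene was tested in 9 of the 13 alternatives and called in these 9. Msrb1, a methionine sulfoxide reductase, was 1.64-fold higher, at 51.1 ± 0.604 FPKM in KO-labelled and 31.2 ± 3.72 FPKM in WT libraries (adjusted p = 0.000351). Txnip, which binds and restrains thioredoxin, was at 58.4 ± 3.11 FPKM in KO-labelled and 65.0 ± 1.36 FPKM in WT libraries. Its adjusted p of 0.0322 ranged from 0.0153 to 0.498 over the alternatives and passed in 6 of 13. The call was lost without KO-labelled replicate 2 (0.0917) and without WT replicate 1 (0.0998), 2 (0.0795) or 3 (0.0609). The antisense gene Gm15441 overlaps 19.4% of the exon length of Txnip.

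Genes that supply NADPH, the reductant of both Gsr and Txnrd1, were lower in most cases. In all 10 of 12 tested genes fell, against 30.2% of all tested genes, and 1 rose (median -0.65). The number that fell was 7 under TPM, under quantile normalization and without KO-labelled replicate 2, and 11 without a filter. Me1, the cytosolic malic enzyme, had 4.74, 4.26 and 3.99 FPKM in KO-labelled libraries, against 96.5, 101 and 98.7 FPKM in WT libraries. This 22.8-fold decrease (log2 difference -4.23 ± 0.06 SE, adjusted p = 1.45e-08) was the largest decrease among the tested genes of the 7 pathway lists. Aldh1l2, a mitochondrial folate enzyme that makes NADPH, was 3.24-fold lower, at 2.10 ± 0.0647 FPKM in KO-labelled and 6.80 ± 0.334 FPKM in WT libraries. G6pdx, the entry enzyme of the pentose phosphate pathway, was 1.77-fold lower, at 60.7 ± 4.17 FPKM in KO-labelled and 108 ± 3.56 FPKM in WT libraries. Both had an adjusted p of at most 2.53e-05. Taldo1 was the gene that rose (named after its values were seen), at 194 ± 2.69 FPKM in KO-labelled and 178 ± 6.03 FPKM in WT libraries, and the number that rose was 0 without any 1 of KO-labelled replicates 1 and 2 or WT replicates 1 and 2. The exons of G6pdx overlap those of Ikbkg over 13.6% of their length and those of Aldh1l2 the gene D10Wsu102e over 14.1%, on the opposite strand in both cases.

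In the list of further known NRF2 targets most genes were also lower. The transferases Gstm1, Gstp1 and Mgst1, all higher in KO-labelled cells, were counted with the enzymes that use glutathione and not here. Among 17 tested genes 11 fell, against 30.2% of all tested genes, and 1 rose (median -0.34). Akr1b8, an aldo-keto reductase, had 12.9, 13.99 and 14.7 FPKM in KO-labelled libraries, against 161, 159.5 and 165 FPKM in WT libraries, 11.6-fold lower (adjusted p = 2.08e-08). Akr1b3, the mouse aldose reductase, was 13.98-fold lower, at 14.1 ± 0.350 FPKM in KO-labelled and 198 ± 3.20 FPKM in WT libraries (adjusted p = 6.85e-09); its near-identical copy Gm12138 averaged 9.40 FPKM. Ephx1, an epoxide hydrolase, was 3.75-fold lower, at 1.31 ± 0.351 FPKM in KO-labelled and 4.92 ± 0.391 FPKM in WT libraries (adjusted p = 9.20e-05). Hmox1, the heme oxygenase that BACH1 is known to repress, was at 75.2, 70.8 and 76.3 FPKM in KO-labelled libraries, against 106, 106 and 113 FPKM in WT libraries, 1.46-fold lower (adjusted p = 7.18e-05).

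Among genes of superoxide removal and of the phagocyte NADPH oxidase, 3 of 8 tested genes rose and 4 fell (median -0.38), and 30.6% of all tested genes rose and 30.2% fell. Sod1, the cytosolic superoxide dismutase, was 2.17-fold lower, at 34.4 ± 0.623 FPKM in KO-labelled and 74.5 ± 1.80 FPKM in WT libraries. Rac2, the GTPase of the oxidase, was 2.11-fold lower, at 87.9 ± 1.62 FPKM in KO-labelled and 185 ± 3.21 FPKM in WT libraries, and the cytosolic subunit gene Ncf4 was 1.78-fold lower, at 39.7 ± 1.95 FPKM in KO-labelled and 70.9 ± 2.30 FPKM in WT libraries. These 3 had an adjusted p of at most 1.21e-05. Sod1 has a near-identical copy, Gm8566, that averaged 8.001 FPKM. Over the 7 lists together 52 of 93 tested genes fell, against 30.2% of all tested genes, and 24 rose, near the 30.6% of all tested genes. The median was -0.26, against 0.0055 for all tested genes.

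**Figure D5:**
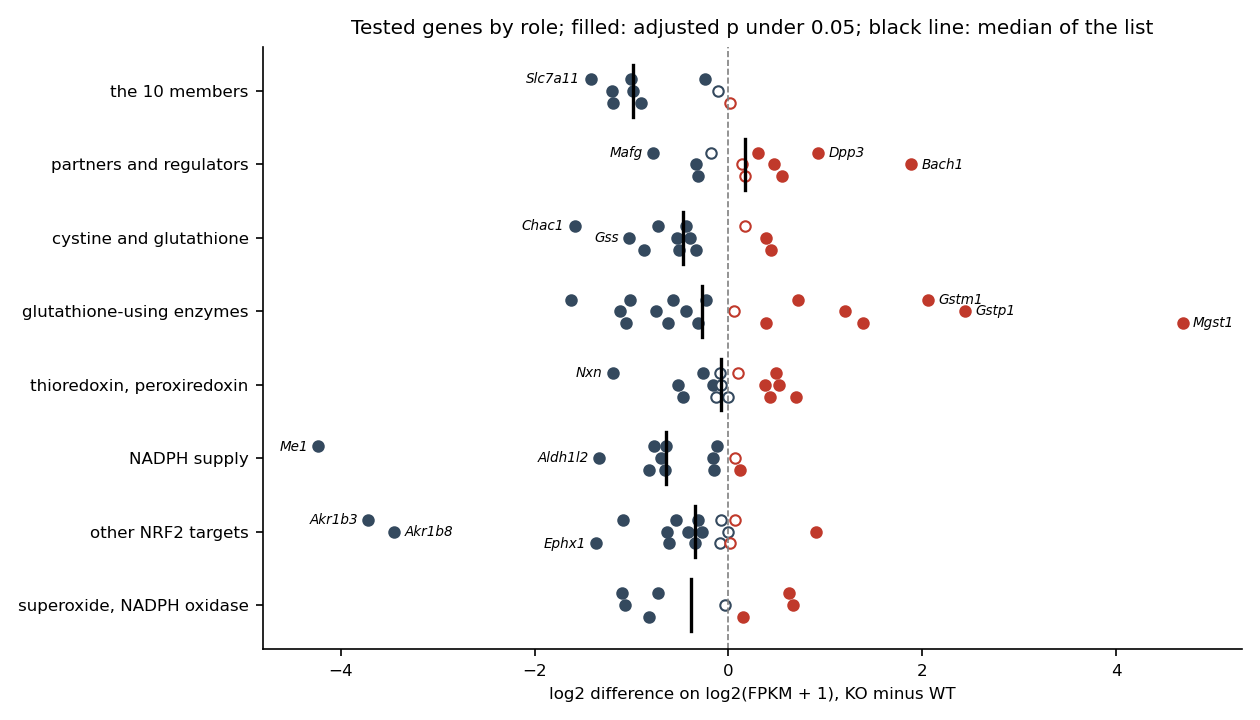
Log2 difference on the log2(FPKM + 1) scale, KO-labelled minus WT, of every tested gene of the members and of the 7 pathway lists, one row per list. Filled points passed an adjusted p of 0.05, dark ones are lower and red ones higher in KO-labelled cells, and the black line is the median of the list, from -0.99 for the members to 0.17 for partners and regulators.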

How the data were processed

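Poly(A) RNA of 6 libraries was sequenced, 3 KO-labelled and 3 WT. The authors deposited FPKM values per Ensembl gene; alignment and counting used featureCounts 1.5.0-p3 and HISAT2 2.0.5 on mm10, as the submitters' processing notes list. Annotation release and strand setting were not given in the sources used here, so reads of overlapping antisense genes may not have been separated. Symbols, positions and exon lengths came from GENCODE M21, which matched 54495 of 54532 identifiers. FPKM times exon length gave whole fragments (within 0.1, up to 200 fragments) for 97.8 to 98.04% of values, from which depth and fragments were recovered; with no molecular identifiers, floors cover counting error only. No 2 libraries shared a value above 0.

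Testing used log2(FPKM + 1) of the 10843 genes whose mean reached 1 FPKM, in limma 3.58.1 (R 4.3.3, trended variance), as the KO minus WT contrast, Benjamini-Hochberg adjusted over all of them; this scale understates changes of weakly expressed genes. Folds are ratios of mean FPKM. Ratios and Tnfsf9 had an exact permutation test. The step was tested on simulated data in which only a small share of genes changed. That run therefore does not cover data such as these, in which 60.8% of tested genes were called. Near-identical copies were found with BLAST+ 2.17.0+ (at least 95% identity over 80% of the shorter transcript and 150 bases). The members and gene lists were chosen with earlier results of these data known. Named are all members, a set of 6 partners, and the 3 tested genes of each list with the largest difference; others are marked. Nnt, which carries more than 1 identifier, was left out.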

Additional observations from a re-analysis of the deposited data

How the results depend on the processing

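The 13 alternatives were log2(FPKM + 0.1), no filter, a mean of at least 5 FPKM, rescaling to TPM, quantile normalization, voom on recovered fragments with trimmed-mean (TMM) scaling, a replicate block and the fits without each library. The number of members that fell was 6 to 8 against 7, and none rose in any of the 13. Over the 7 pathway lists 44 to 53 genes fell, against 52, and 18 to 29 rose, against 24. Over all tested genes 4710 to 7414 were called, against 6594 of 10843. The ends of this range were 4710 of 7290 tested genes with the 5 FPKM filter and 7414 of 20848 without a filter. The signs of Keap1 (-0.020 under quantile normalization and -0.048 without WT replicate 2, against 0.020; -0.048 to 0.088 over the fits without 1 library and 0.11 under TPM) and Prdx1 (0.085 under quantile normalization, against -0.11) turned, neither being called in those fits, and the cause was not tested. Rescaling to TPM moved the median of all tested genes by 0.090. In single lists the number that rose was 1 against 2 for cystine and glutathione handling with the 5 FPKM filter, quantile normalization or the block, 3 against 5 for thioredoxin with the 5 FPKM filter, 0 without a filter or with the block and 2 under TPM or quantile normalization against 1 for NADPH supply, and 2 against 1 for further targets without a filter or under quantile normalization. No pairing of the libraries by their shared replicate numbers was seen. Same-numbered libraries had correlations of their deviations of -0.034, 0.047 and -0.032, and KO-labelled replicates 1 and 3 correlated better with another number. With 3 libraries per group these correlations cannot exclude a pairing. With the replicate block 7 members fell and 6194 genes were called. Left-out libraries moved the log2 ratio difference of Gclm over Gclc between 0.019 and 0.21, and those of the other 3 ratios kept their sign. Depth limits Nqo1, with 42 fragments over the KO-labelled and 43 over the WT libraries.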

Other observations

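Some glutathione-dependent enzymes outside the genes named by rule, chosen like all genes in these paragraphs after their values were seen, differed in both directions. Higher in KO-labelled cells were Gsto1, at 76.5 ± 6.91 FPKM in KO-labelled and 28.6 ± 0.692 FPKM in WT libraries (2.68-fold, adjusted p = 4.28e-06), Gstm4 (3.44-fold, adjusted p = 0.000324) and the glutaredoxin gene Glrx (1.74-fold, adjusted p = 0.000338). The pair of glyoxalases, which clear methylglyoxal with glutathione as cofactor, was lower in KO-labelled cells: Glo1 was at 23.6 ± 1.93 FPKM in KO-labelled and 50.3 ± 4.63 FPKM in WT libraries (2.13-fold lower, adjusted p = 4.29e-05), and Hagh at 12.3 ± 1.07 FPKM in KO-labelled and 25.8 ± 1.99 FPKM in WT libraries (2.10-fold lower, adjusted p = 4.12e-05). Esd, whose product splits the glutathione adduct of formaldehyde, was 2.20-fold lower (adjusted p = 1.88e-05). Glo1 and Esd have near-identical copies, of which Gm13443, a copy of Glo1, averaged 11.15 FPKM. Gpx1, the abundant glutathione peroxidase, was at 199.7 ± 4.34 FPKM in KO-labelled and 307 ± 10.5 FPKM in WT libraries (adjusted p = 1.77e-05). Mgst2, a relative of Mgst1, was 4.27-fold lower (adjusted p = 5.28e-06), whereas Mgst1 itself had 0 fragments in the WT libraries.

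Outside these enzymes, and again chosen after their values were seen, Slc1a5, a glutamine transporter, was 1.67-fold lower, at 47.3 ± 0.373 FPKM in KO-labelled and 79.1 ± 2.47 FPKM in WT libraries (adjusted p = 6.74e-06), and Pgd, the second NADPH-producing enzyme of the pentose phosphate pathway, was 1.72-fold lower, at 59.01 ± 0.364 FPKM in KO-labelled and 102 ± 3.05 FPKM in WT libraries (adjusted p = 4.48e-06). Ptgr1 was the only tested gene in the list of further NRF2 targets that rose, at 8.95 ± 0.263 FPKM in KO-labelled and 4.32 ± 0.0430 FPKM in WT libraries (adjusted p = 9.50e-06). In the NADPH oxidase the membrane subunit gene Cybb was 1.61-fold higher in KO-labelled cells, beside the lower Ncf4 and Rac2. The calls of Gsto1, Glo1, Hagh, Esd, Gpx1, Slc1a5, Pgd, Ptgr1 and Cybb held in all 13 alternatives.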
